A study of Arabidopsis thaliana with 6 samples.

Results

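The touch and wound early response genes described here are 10 genes of *Arabidopsis thaliana*: *TCH2*, *TCH3*, *TCH4*, *ZAT10*, *ZAT12*, *WRKY33*, *WRKY40*, *WRKY53*, *ERF5* and *ERF6*. They were taken by gene identifier, by a rule that holds no threshold on a measured value but was written with earlier results of these data known, and all 10 were found among the 32833 genes listed in each library, of which 27825 were above 0 in at least 1 library. Anther RNA was sequenced from *ice1-2*, a T-DNA mutant, and from Col-0, the wild-type accession in whose background the mutant stands. Each genotype had 3 libraries, labelled A, B and C, and no other allele or treatment was involved. Anthers came from greenhouse plants under 16 h of light and 8 h of dark at 22 °C. Their stages were 9 to 13, which the labels count as anther stages and the paper as flower stages. The insertion lies in the third exon of *ICE1*, which encodes a basic helix-loop-helix transcription factor known for the response to cold and for the formation of stomata, and 1 allele stands for the loss of the gene. Levels are in FPKM, fragments counted per kilobase of gene and scaled to the size of the library, so they can be set side by side between genes. *ICE1* itself (AT3G26744) was at 12.9, 15.4 and 21.5 FPKM in the *ice1-2* libraries A, B and C, against 12.7, 9.25 and 14.0 FPKM in Col-0. Its level was not lower in *ice1-2*, and since 1 value covers the whole gene on both sides of the insertion, it does not check the labels. No source used here says that libraries of 1 genotype came from separate plants, so p values measure only the spread between these libraries.

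Touch, wounding and many other sudden stimuli raise cytosolic calcium and activate MAP kinase cascades, and a small set of genes is transcribed within minutes as a result. Their transcripts are short-lived, so the level falls again soon after the stimulus ends. The set includes calcium sensors and wall-modifying enzymes, first found as *TOUCH* genes in sprayed or touched rosettes, and transcription factors of the C2H2 zinc finger, WRKY and AP2/ERF families that act on later genes. Many of these factors also respond to cold, to reactive oxygen and to fragments of microbes.

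All 10 genes had a log2 fold change (*ice1-2* over Col-0) above 0, as did 65.2% of the 18858 genes tested. *ZAT10* alone was called, at a fold change past 2 in either direction and a Benjamini-Hochberg (BH) adjusted p under 0.05 with limma. This is 1 of the 9 that passed the filter of 1 FPKM in at least 3 libraries, where 1.54% of all tested genes were called higher and 0.233% lower. In 5 genes (*ZAT10*, *ZAT12*, *WRKY33*, *WRKY53* and *ERF6*) every *ice1-2* library was above every Col-0 library, which was so for 19.8% of tested genes, and for 16.2% of all genes above 0, the set to which *WRKY53* belongs. No gene of the 10 had all its *ice1-2* libraries below Col-0 (7.39% of tested genes). A log2 fold change above 1 was measured in 5 of them, *TCH3*, *ZAT10*, *WRKY33*, *WRKY40* and *ERF6*, against 4.74% of tested genes. With no limit on the fold, 1.62% of tested genes passed higher and 0.27% lower, and *ZAT10* was again the only one of the 10. At an unadjusted p under 0.05, 6 of the 9 were higher and 0 lower, against 16.2% of tested genes higher and 5.26% lower. The median log2 fold change of the 10 genes was 0.92, that of all tested genes 0.15. Median-ratio scaling, which evens out such a shift between libraries, brought these medians to 0.79 and −0.017. Its factors ran from 0.869 in Col-0 B to 1.21 in *ice1-2* C. The counts of genes with all *ice1-2* libraries above or below Col-0 are from unscaled FPKM and were not repeated after scaling.

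**Figure D1:**
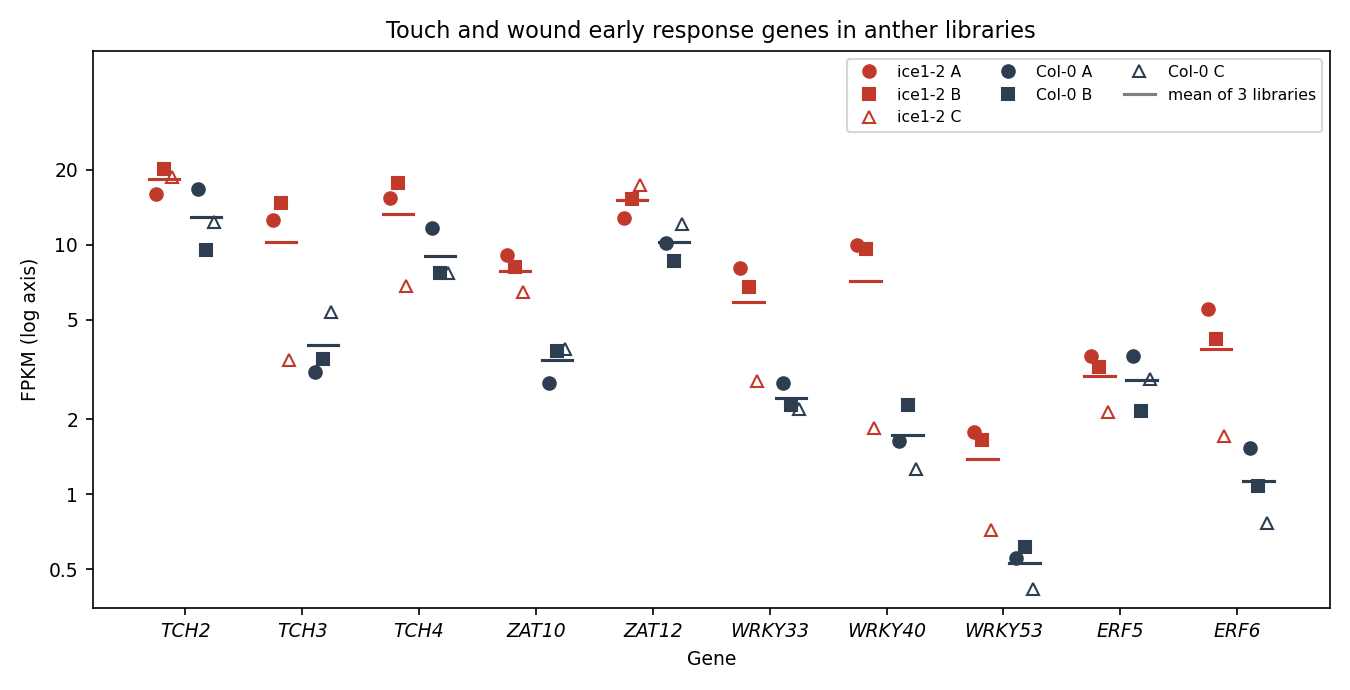
FPKM of the 10 genes (log axis) in each of the 3 *ice1-2* libraries (red, left) and the 3 Col-0 libraries (dark blue, right), with the mean of each genotype as a bar. *ice1-2* C lies below *ice1-2* A and B in 8 of the 10 genes, and it lies inside the Col-0 range in *TCH3* and *WRKY40* and below it in *TCH4* and *ERF5*.

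*TCH2* (AT5G37770, chr5:14997514-14999619, minus strand) encodes a calmodulin-like calcium sensor, a protein that changes shape when it binds calcium. *TCH2* had 16.0, 20.2 and 18.8 FPKM in *ice1-2* A, B and C, against 16.7, 9.50 and 12.4 FPKM in the Col-0 libraries of the same letters. Col-0 A stood above *ice1-2* A, so the groups overlapped, while the other *ice1-2* libraries were above all of Col-0. Its log2 fold change was 0.52 (SE 0.23, 95% interval 0.00036 to 1.04), which did not pass after adjustment (BH-adjusted p = 0.233 with limma). *TCH2* had the most even level within *ice1-2* of the 10 genes, the highest library being 1.26 times the lowest.

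*TCH3* (AT2G41100, chr2:17137037-17139700, plus strand) encodes another calmodulin-like protein, with several calcium-binding EF-hands. It stood at 12.6, 14.8 and 3.44 FPKM in the *ice1-2* libraries, against 3.08, 3.47 and 5.36 FPKM in the Col-0 libraries. *ice1-2* A and B were well above Col-0, and *ice1-2* C lay inside the Col-0 range, so the spread within *ice1-2* was 4.29-fold. The log2 fold change of 1.08 (SE 0.48, 95% interval −0.0091 to 2.17) went with a BH-adjusted p of 0.237 in limma. The change was 1.69 without *ice1-2* C and 0.72 without *ice1-2* B.

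*TCH4* (AT5G57560, chr5:23307006-23308680, minus strand) encodes a xyloglucan endotransglucosylase/hydrolase, an enzyme that cuts and rejoins the xyloglucan chains between cellulose fibres of the wall. Its levels were 15.3, 17.7 and 6.82 FPKM in *ice1-2* and 11.6, 7.71 and 7.68 FPKM in Col-0. *ice1-2* C was the lowest of all 6 libraries, and *ice1-2* A and B were above all of Col-0. For *TCH4* the log2 fold change was 0.46 (SE 0.35, 95% interval −0.33 to 1.25, BH-adjusted p = 0.474 with limma), an interval that runs from a small decrease to more than a 2-fold increase. Without *ice1-2* C it was 0.86, and without *ice1-2* B 0.21.

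To show what stands before the genes, the 250 bases upstream of the annotated transcript start were read from the RefSeq sequence of TAIR10.1 and searched on both strands for letters that are known from genes of rapid stress responses. These were TTGAC, the core of the W-box that WRKY proteins bind, CGCGTT, the rapid stress response element, and GCCGCC, the core of the GCC-box that ERF proteins bind. Matches are in capitals, and those on the other strand appear as the reverse complement. Of the *TCH* genes, *TCH2* is shown because its window (chr5:14999620-14999869, minus strand) held 4 overlapping matches of CGCGTT, counted on both strands, in 2 blocks, while 2.59% of 27443 such windows in the genome held any.
TCH2 upstream: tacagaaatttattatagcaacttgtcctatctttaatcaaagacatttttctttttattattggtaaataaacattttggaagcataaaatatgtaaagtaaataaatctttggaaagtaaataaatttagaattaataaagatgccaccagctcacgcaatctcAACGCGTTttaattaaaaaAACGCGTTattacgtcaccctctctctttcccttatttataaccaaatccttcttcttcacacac
The window of *TCH4* held 1 W-box core and that of *TCH3*, part of which belongs to the neighbouring AT2G41090, held none of these motifs. A match of letters is a description and not a binding site.

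*ZAT10* (AT1G27730, annotated as *STZ*, chr1:9648021-9649323, minus strand, 1 exon) encodes a C2H2 zinc finger protein with an EAR motif that represses transcription and is induced by cold, salt, drought and intense light. *ZAT10* rose in *ice1-2*, with 9.08, 8.11 and 6.45 FPKM in *ice1-2* A, B and C, against 2.79, 3.74 and 3.81 FPKM in the Col-0 libraries A, B and C. The lowest *ice1-2* library was well above the highest Col-0 library, and the means were 7.88 ± 1.33 FPKM in *ice1-2* and 3.45 ± 0.570 FPKM in Col-0 (SD, n = 3 each). The log2 fold change was 1.08 (SE 0.21, 95% interval 0.61 to 1.56, BH-adjusted p = 0.0456 with limma), a 2.12-fold increase. The adjusted p stood close to the threshold, and leaving out any 1 of the 6 libraries raised it to between 0.0637 and 0.134 while the log2 fold change stayed between 0.96 and 1.21. With median-ratio scaling the change was 0.92 (BH-adjusted p = 0.0955 with limma), with no filter on low values the adjusted p was 0.0911, and with a pseudocount of 1 the fold limit was missed at 0.995, so that the call was lost in each case.

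*ZAT12* (AT5G59820, annotated as *RHL41*, chr5:24102814-24103794, plus strand, 1 exon) encodes a related zinc finger protein that takes part in responses to reactive oxygen, high light and cold. It had 12.8, 15.2 and 17.4 FPKM in the *ice1-2* libraries A, B and C, against 10.2, 8.62 and 12.1 FPKM in Col-0. All 3 *ice1-2* libraries were above all of Col-0, although *ice1-2* A exceeded Col-0 C by little. The log2 fold change of 0.54 (SE 0.20, 95% interval 0.085 to 0.99) was not called (BH-adjusted p = 0.169 with limma). *ZAT12* was the only one of the 10 genes with its highest *ice1-2* level in library C.

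The upstream windows of both zinc finger genes are shown because *ZAT10* is the gene that was called and *ZAT12* the related gene, which had its highest *ice1-2* level in library C. The capitals mark the same motifs as before.
ZAT10 upstream: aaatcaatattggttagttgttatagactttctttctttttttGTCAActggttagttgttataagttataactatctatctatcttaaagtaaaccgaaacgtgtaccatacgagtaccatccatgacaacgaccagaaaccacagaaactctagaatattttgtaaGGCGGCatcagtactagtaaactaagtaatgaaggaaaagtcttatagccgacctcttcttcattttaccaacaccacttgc
ZAT12 upstream: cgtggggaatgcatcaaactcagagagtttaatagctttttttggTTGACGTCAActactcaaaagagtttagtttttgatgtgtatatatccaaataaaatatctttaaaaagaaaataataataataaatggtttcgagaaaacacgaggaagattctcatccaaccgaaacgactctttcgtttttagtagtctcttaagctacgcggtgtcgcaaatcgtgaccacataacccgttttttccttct
The *ZAT10* window (chr1:9649324-9649573, minus strand) held 1 W-box core and 1 GCC-box core, a motif found in 1.87% of windows. In the *ZAT12* window (chr5:24102564-24102813, plus strand) 2 W-box cores on opposite strands met end to end.

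*WRKY33* (AT2G38470, chr2:16108235-16110766, plus strand) encodes a WRKY factor that is phosphorylated by the MAP kinases MPK3 and MPK6 and is needed for camalexin synthesis and resistance to necrotrophic fungi. *WRKY33* was at 8.06, 6.75 and 2.84 FPKM in *ice1-2*, against 2.79, 2.29 and 2.20 FPKM in Col-0. The groups did not overlap, but *ice1-2* C exceeded Col-0 A by little. In limma its log2 fold change was 1.02 (SE 0.34, 95% interval 0.24 to 1.80, BH-adjusted p = 0.139 with limma).

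*WRKY40* (AT1G80840, chr1:30383561-30385499, plus strand) encodes a repressor that acts together with WRKY18 and WRKY60 in defence and abscisic acid responses. It had 10.02, 9.61 and 1.84 FPKM in the *ice1-2* libraries, against 1.63, 2.27 and 1.27 FPKM in the Col-0 libraries. *ice1-2* A and B were far above every other library, and *ice1-2* C was below Col-0 B. The log2 fold change of 1.52 (SE 0.54, 95% interval 0.30 to 2.75, BH-adjusted p = 0.155 with limma) was the largest of the 10 genes and had the largest error. Without *ice1-2* C the change was 2.24 and passed (BH-adjusted p = 0.0447 with limma), and without *ice1-2* A it was 1.15 (BH-adjusted p = 0.271). With all 6 libraries it passed under library quality weights (1.87, BH-adjusted p = 0.0444 with limma).

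*WRKY53* (AT4G23810, chr4:12392370-12393982, minus strand) encodes a WRKY factor that promotes leaf senescence. It was the lowest of the 10 genes, at 1.78, 1.65 and 0.719 FPKM in *ice1-2* and 0.552, 0.615 and 0.417 FPKM in Col-0, and was fitted without the filter on low values. All *ice1-2* libraries were above Col-0, library C by the least. The log2 fold change was 0.82 (SE 0.28, 95% interval 0.16 to 1.49, BH-adjusted p = 0.201 with limma over 27825 genes, of which 0.0863% were called higher). AT4G23800, on the opposite strand, covers 21.1% of *WRKY53* and was at 10.3, 15.9 and 13.0 FPKM in *ice1-2*, against 6.58, 4.70 and 2.70 FPKM in Col-0. The sources name no strand setting for the counting, and the part of AT4G23800 in the value of *WRKY53* was not tested. The other opposite-strand genes that overlap *TCH2*, *TCH3*, *WRKY33* and *WRKY40* were at or under 0.682 FPKM, or covered at most 2.63% of the gene.

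*WRKY33* and *WRKY40* had the largest changes of the 3 WRKY genes among the 10 and are shown with their upstream windows (chr2:16107985-16108234 and chr1:30383311-30383560, both plus strand).
WRKY33 upstream: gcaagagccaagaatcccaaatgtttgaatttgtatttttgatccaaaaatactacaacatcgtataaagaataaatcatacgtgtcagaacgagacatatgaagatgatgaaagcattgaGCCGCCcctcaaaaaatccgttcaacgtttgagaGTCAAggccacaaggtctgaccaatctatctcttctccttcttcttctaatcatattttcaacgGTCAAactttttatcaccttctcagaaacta
WRKY40 upstream: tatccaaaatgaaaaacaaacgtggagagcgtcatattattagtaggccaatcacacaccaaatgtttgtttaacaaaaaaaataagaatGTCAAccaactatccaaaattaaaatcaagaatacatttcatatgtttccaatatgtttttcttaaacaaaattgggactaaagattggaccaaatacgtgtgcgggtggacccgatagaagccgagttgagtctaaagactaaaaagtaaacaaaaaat
The W-box core stood in the windows of all 3 WRKY genes, at 2, 1 and 2 places in *WRKY33*, *WRKY40* and *WRKY53*. Over the 10 genes it was found in 7 (70%), against 44.9% of windows in the genome. The E-box, CANNTG, which basic helix-loop-helix proteins such as ICE1 can bind, was found in 6 of the 10 windows and in 55.3% of all. Its palindromic form CACGTG, the G-box, was in 0 of the 10 and in 6.49% of all.

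*ERF5* (AT5G47230, chr5:19179881-19181182, plus strand) and *ERF6* (AT4G17490, chr4:9752824-9754161, minus strand) encode closely related AP2/ERF factors with 1 exon each, which act in defence and in growth under osmotic stress. *ERF6* was at 5.52, 4.19 and 1.71 FPKM in *ice1-2*, against 1.53, 1.08 and 0.765 FPKM in Col-0. Its groups did not overlap, library C being the lowest in each genotype. The log2 fold change of *ERF6* was 1.31 (SE 0.38, 95% interval 0.44 to 2.18, BH-adjusted p = 0.105 with limma). *ERF5* had 3.58, 3.22 and 2.13 FPKM in *ice1-2*, against 3.60, 2.15 and 2.90 FPKM in Col-0. The highest library of *ERF5* was in Col-0 and the lowest in *ice1-2*, so neither genotype stood above the other. Its log2 fold change was 0.037 (SE 0.26, 95% interval −0.55 to 0.62, BH-adjusted p = 0.950 with limma), and its sign turned with median-ratio scaling (−0.11). The difference between the changes of *ERF5* and *ERF6* was not tested.

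**Figure D2:**
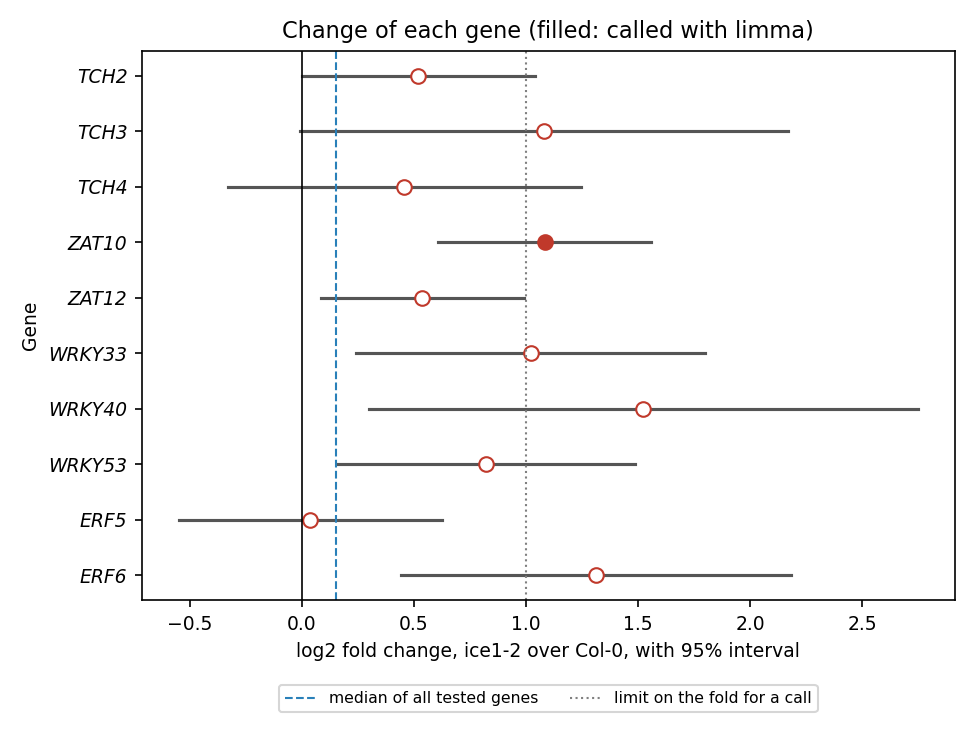
Log2 fold change (*ice1-2* over Col-0) of each of the 10 genes with its 95% interval from limma. The filled point marks *ZAT10*, the only gene called, the dashed line the median of all tested genes (0.15) and the dotted line the fold limit of a call; the intervals of *TCH3*, *TCH4* and *ERF5* include 0.

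By mean level the order in *ice1-2* was *TCH2* (18.3 ± 2.14 FPKM), *ZAT12* (15.2 ± 2.31), *TCH4* (13.3 ± 5.73), *TCH3* (10.3 ± 6.01), *ZAT10* (7.88 ± 1.33), *WRKY40* (7.15 ± 4.61), *WRKY33* (5.88 ± 2.72), *ERF6* (3.81 ± 1.94), *ERF5* (2.98 ± 0.756) and *WRKY53* (1.38 ± 0.577; SD, n = 3). In Col-0 *TCH2* (12.9 ± 3.65 FPKM), *ZAT12* (10.3 ± 1.75) and *TCH4* (9.01 ± 2.27) were again the highest, followed by *TCH3* (3.97 ± 1.22), *ZAT10* (3.45 ± 0.570), *ERF5* (2.88 ± 0.721), *WRKY33* (2.43 ± 0.317), *WRKY40* (1.72 ± 0.510), *ERF6* (1.13 ± 0.384) and *WRKY53* (0.528 ± 0.101). Neighbours in the *ice1-2* order differed by less than the larger of their SDs, except *TCH2* from *ZAT12* and *ERF5* from *WRKY53*. In the Col-0 order the exceptions were *TCH4* from *TCH3*, and each step from *WRKY33* down to *WRKY53*. In bulk RNA, more cells that express a gene and more RNA per cell cannot be told apart.

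Within *ice1-2*, 1 library was mostly the lowest. *ice1-2* C was the lowest of the 3 *ice1-2* libraries in 8 of the 10 genes, against 16.4% of all tested genes, while *ice1-2* A was the lowest in *TCH2* and *ZAT12*. In 3 genes (*TCH3*, *TCH4* and *WRKY40*) *ice1-2* A and B were above all of Col-0 and *ice1-2* C was not, a pattern held by 1.99% of tested genes. Both shares, and the order of libraries in each gene, rest on unscaled FPKM. The median-ratio factor was 0.955, 1.08 and 1.21 in *ice1-2* A, B and C, so unscaled values ran high in C. The ratio of highest to lowest library was 5.45 in *WRKY40*, 3.23 in *ERF6*, 2.84 in *WRKY33*, 2.60 in *TCH4* and 2.47 in *WRKY53* within *ice1-2*, beside the 4.29 of *TCH3*. It was 1.68 in *ERF5*, 1.41 in *ZAT10*, 1.36 in *ZAT12* and 1.26 in *TCH2* within *ice1-2*. Within Col-0 it lay between 1.27 (*WRKY33*) and 2.00 (*ERF6*) over all 10 genes, and in *TCH2* (1.76) and *ZAT12* (1.41) it was larger than in *ice1-2*. Centred on its own mean and averaged over the 10 genes, log2(FPKM + 0.5) was 0.73, 0.72 and −0.19 in *ice1-2* A, B and C, against −0.31, −0.50 and −0.45 in Col-0. *ice1-2* C thus stood nearer to Col-0 than to the other *ice1-2* libraries in this average.

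**Figure D3:**
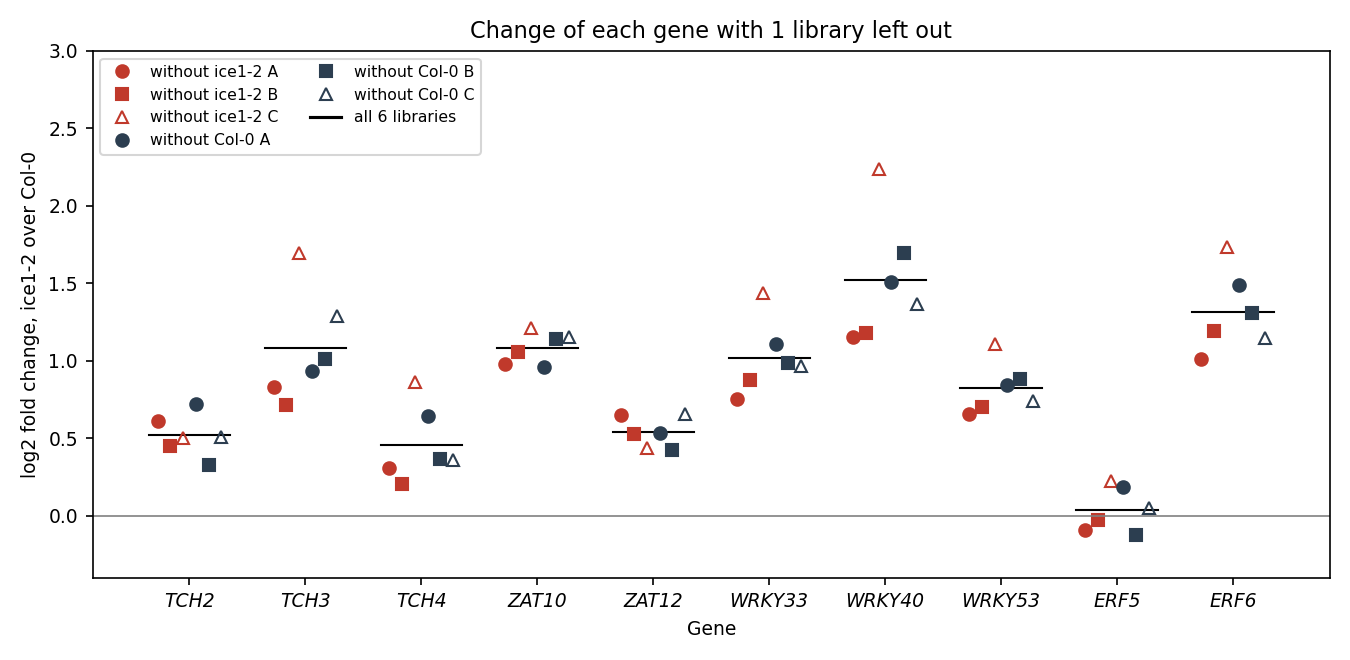
Log2 fold change (*ice1-2* over Col-0) of the 10 genes with each of the 6 libraries left out in turn (symbols) and with all 6 (bars). Leaving out *ice1-2* C gave the highest value in 8 genes, for instance 2.24 in *WRKY40*, and the values of *ERF5* lay on both sides of 0, from −0.13 to 0.23.

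Library properties and markers of other tissues were set beside these levels. Depth, estimated roughly from the steps between low FPKM values, was 5.85, 19.6 and 14.3 M fragments in *ice1-2* A, B and C, against 22.1 to 27.0 M in Col-0. Summed FPKM of 7 green tissue markers was 2128, 3272 and 3574 in *ice1-2*, against 1249 to 1531 in Col-0, with 7 of 7 above Col-0 in every library and 3 called higher. Of all tested genes, 19.8% were above Col-0 in every library and 1.54% were called higher. Of the 5 carpel and ovule markers (6.65, 5.41 and 10.1 FPKM in sum in *ice1-2*, 1.57 to 4.57 in Col-0), 2 passed the filter and *CRC* was called higher. In the other markers, *SHP1*, *SHP2*, *STK* and *INO*, the genotypes overlapped. The 6 tapetum markers summed to 178, 343 and 314 FPKM in *ice1-2* and 675, 53.4 and 66.6 FPKM in Col-0, highest in its library A, and *MS1* was at 0 in *ice1-2* A. The 6 pollen markers, present in every library, summed to between 6451 and 10923 FPKM in *ice1-2* and between 10746 and 13403 FPKM in Col-0. Of these, 0 were called (0 at an unadjusted p under 0.05 with limma). The log2 fold change was above 0 in 0 of the 6 (median −0.30), and *VGD1* was below Col-0 in every *ice1-2* library, as were 7.39% of tested genes. *ice1-2* C, low in most of the 10 genes, had the highest green sum and the lowest pollen sum. Without *ice1-2* B and Col-0 A, the libraries with the highest tapetum sum of their genotype, *ZAT10* had a log2 fold change of 0.93 (BH-adjusted p = 0.132 with limma). The libraries left still differed in tapetum sum, at 178 and 314 FPKM in *ice1-2* against 53.4 and 66.6 FPKM in Col-0. This fit therefore did not even out tapetum RNA between the genotypes. The part of depth, green tissue, tapetum, pollen or carpel RNA in the levels of the 10 genes was not tested.

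In how they varied over the 6 libraries, the genes most alike were *WRKY33* and *ERF6*, whose centred log2 profiles differed by a root mean square of 0.192, *WRKY33* and *WRKY53* (0.193), and *TCH2* and *ZAT12* (0.224). *ZAT12* and *WRKY40* were the least alike (1.01). Against the mean profile of the 10 genes, the median of 18849 other genes differed by 0.580. The nearest was the *U12* small nuclear RNA gene (AT1G61275, 0.152), followed by AT1G60610 (0.160), *ACS6* (AT4G11280, 0.161), *RTFL12* (AT4G13395, 0.164) and ATCG00790 (0.170). *ACS6*, an ACC synthase that makes the precursor of ethylene and is itself induced by touch, was at 22.1, 23.4 and 14.4 FPKM in *ice1-2*, against 11.9, 10.5 and 8.25 FPKM in Col-0.

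Related genes of the same response were counted from fixed lists, and limma called 0 of them in all 7 lists. Over all tested genes 1.78% were called in either direction. Of the calmodulin and calmodulin-like genes other than *TCH2* and *TCH3*, 5 of 7 were tested, 2 were higher at an unadjusted p under 0.05 and 0 lower, and the median log2 fold change of all 7 was 0.60. Over all tested genes 16.2% were higher and 5.26% lower at this p, and with so few genes a list these counts are given as a description only. *CML38*, a calmodulin-like gene induced by wounding, had 5.26, 9.02 and 0.706 FPKM in *ice1-2*, against 0.893, 1.03 and 0.347 FPKM in Col-0. As in *TCH3*, *ice1-2* C lay within the Col-0 range (log2 fold change 1.73, BH-adjusted p = 0.186 with limma). AT2G41090, which ends just before *TCH3* starts, had 3.36, 8.20 and 6.85 FPKM in *ice1-2*, against 1.71, 1.26 and 2.02 FPKM in Col-0, with no overlap (log2 fold change 1.55, BH-adjusted p = 0.0505 with limma). In this list of 7, 2 genes had every *ice1-2* library above every Col-0 library and 0 below, against 19.8% and 7.39% of tested genes. *CML41* had a log2 fold change of 0.60 (BH-adjusted p = 0.488 with limma).

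Of 11 xyloglucan endotransglucosylase/hydrolase genes besides *TCH4*, 10 were tested, 2 were higher at an unadjusted p under 0.05 and 0 lower, close to the shares of all tested genes (16.2% and 5.26%), and the median over all 11 was 0.30. *XTH7* was at 22.0, 5.13 and 4.11 FPKM in *ice1-2*, against 0.607, 2.31 and 3.07 FPKM in Col-0 (log2 fold change 1.91, BH-adjusted p = 0.137 with limma). *XTH19* was at 27.0, 3.35 and 8.43 FPKM in *ice1-2*, against 1.80, 2.16 and 3.74 FPKM in Col-0 (1.73, BH-adjusted p = 0.158 with limma). In both, *ice1-2* A was far above the other 5 libraries, whereas in *TCH4* the libraries *ice1-2* A and B were close. *XTH4* had a log2 fold change of 1.02 (BH-adjusted p = 0.368 with limma).

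Among the transcription factor families, 4 of 9 zinc finger genes of the *ZAT10* group were tested, 1 was higher at an unadjusted p under 0.05 and 0 lower, too few to set apart from the 16.2% and 5.26% of all tested genes, with a median of −0.017. *AZF3* had a log2 fold change of 0.66 (BH-adjusted p = 0.144 with limma), *ZAT6* −0.53 (0.413) and *AZF2* −0.21 (0.684). Of 16 other WRKY genes induced by stress, 10 were tested, 4 were higher at an unadjusted p under 0.05 and 1 lower, with a median of 0.37. The shares of all tested genes were again 16.2% and 5.26%, and with so few genes these counts are a description only. *WRKY46* was at 5.80, 6.67 and 3.34 FPKM in *ice1-2*, against 2.12, 1.91 and 0.514 FPKM in Col-0 (log2 fold change 1.59, BH-adjusted p = 0.0774 with limma). *WRKY18*, the partner of *WRKY40*, was at 5.78, 10.1 and 2.50 FPKM in *ice1-2*, against 1.73, 1.96 and 2.04 FPKM in Col-0 (1.28, BH-adjusted p = 0.124 with limma). *WRKY25*, a close relative of *WRKY33*, differed in the other direction, with 0.817, 1.03 and 0.526 FPKM in *ice1-2*, against 1.88, 1.57 and 3.77 FPKM in Col-0 (−1.12, BH-adjusted p = 0.105 with limma). The groups did not overlap in *WRKY46*, *WRKY18* and *WRKY25*. Of the 16 WRKY genes, 4 had every *ice1-2* library above every Col-0 library and 1 below, against 19.8% and 7.39% of tested genes.

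Of 12 other AP2/ERF genes, 8 were tested, and the median of all 12 was 0.71. At an unadjusted p under 0.05, 4 were higher and 0 lower, against 16.2% and 5.26% of all tested genes. With so few genes this is a description only. *ERF2*, an activator that binds the GCC-box, was at 1.90, 3.17 and 1.69 FPKM in *ice1-2*, against 0.746, 0.514 and 0.387 FPKM in Col-0 (log2 fold change 1.37, BH-adjusted p = 0.0514 with limma). *ERF13* was at 4.35, 6.35 and 3.95 FPKM in *ice1-2*, against 1.99, 2.11 and 1.34 FPKM in Col-0 (1.21, BH-adjusted p = 0.0501 with limma). Neither gene's groups overlapped, and both stood just outside the threshold. Of the 12 genes, 3 had every *ice1-2* library above every Col-0 library and 0 below, against 19.8% and 7.39% of tested genes. *RRTF1*, a factor of the redox response, was at 6.01, 7.88 and 1.32 FPKM in *ice1-2*, against 1.63, 1.92 and 1.10 FPKM in Col-0, with *ice1-2* C again inside the Col-0 range (1.20, BH-adjusted p = 0.229 with limma).

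The signalling genes that act before these factors, MAP kinases and their kinases, a phosphatase and calmodulin-binding CAMTA factors among them, had a median log2 fold change of 0.089. Of 12, 11 were tested, and 0 were higher and 0 lower at an unadjusted p under 0.05 with limma. *MPK3*, one of the terminal kinases, had a log2 fold change of 0.58 (BH-adjusted p = 0.247 with limma), *MKK4*, which phosphorylates it, 0.46 (0.236) and *MKK9* 0.32 (0.376). Of 18 other rapidly induced genes, 12 were tested, 3 were higher at an unadjusted p under 0.05 and 0 lower, against 16.2% and 5.26% of all tested genes, and the median was 0.36. *CAF1a*, a deadenylase that shortens the tails of mRNAs, was at 10.9, 10.9 and 6.68 FPKM in *ice1-2*, against 4.84, 3.36 and 3.12 FPKM in Col-0 (log2 fold change 1.21, BH-adjusted p = 0.0510 with limma). *SYP122*, a syntaxin of the plasma membrane, had a log2 fold change of 1.28 (BH-adjusted p = 0.109 with limma) and *ACS6* of 0.91 (0.0812). No overlap between the groups was seen in *CAF1a*, *SYP122* and *ACS6*. Of the 18 genes, 7 had every *ice1-2* library above every Col-0 library and 0 below, against 19.8% and 7.39% of tested genes.

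**Figure D4:**
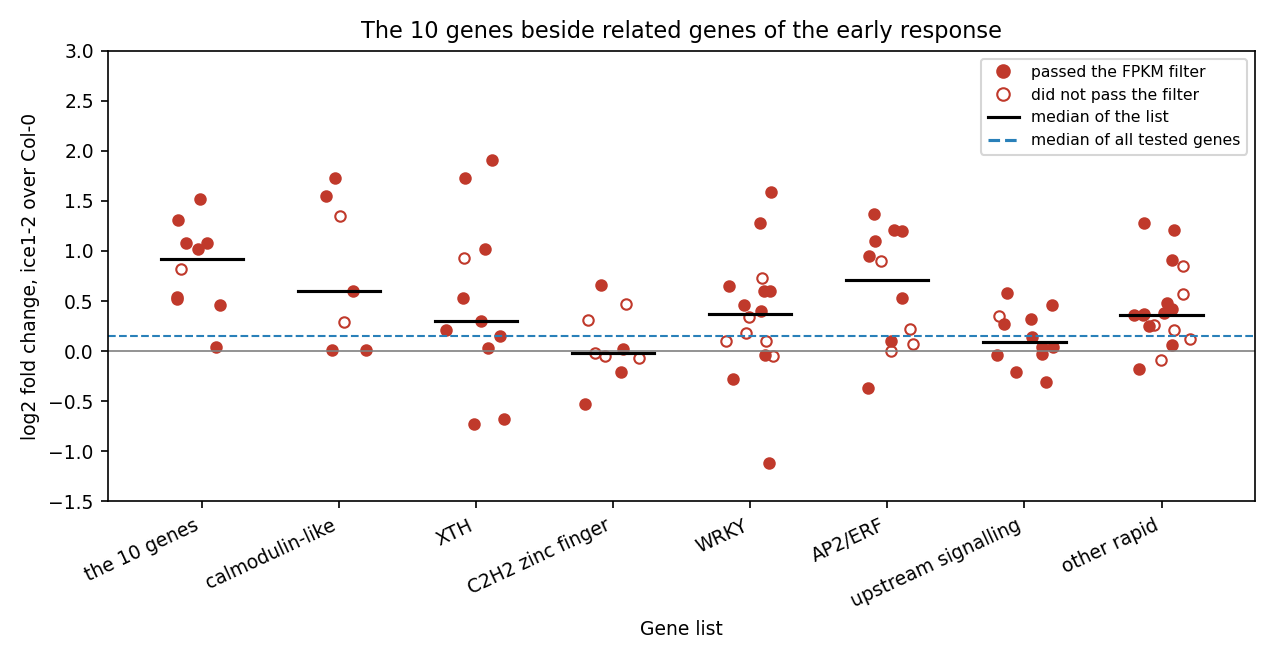
Log2 fold change (*ice1-2* over Col-0) of the 10 genes and of 7 lists of related genes, each point a gene (open where it did not pass the FPKM filter), with the median of the list as a bar. The medians of the 10 genes (0.92), AP2/ERF (0.71), calmodulin-like (0.60), WRKY (0.37), other rapid (0.36) and XTH (0.30) genes lie above that of all tested genes (0.15, dashed). Those of the *ZAT10* group (−0.017) and of upstream signalling (0.089) lie below it. List medians include genes that did not pass the filter, and the median of all genes above 0 in any library was 0.10.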

How the data were processed

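RNA of anthers was sequenced in 3 libraries of *ice1-2* and 3 of Col-0 (the labels name both single-end and paired-end reads of 100 bp, the paper paired-end). The deposited FPKM values were made by the authors, who cleaned reads with Trim Galore, aligned them by TopHat2 against TAIR10, built transcripts in StringTie and Cufflinks and counted with HTSEQ. No strand setting is named, and FPKM without counts leaves depth only roughly known. An FPKM of 1 or more in 3 or more libraries was required, leaving 18858 genes, whose log2(FPKM + 0.5) was fitted with limma 3.58.1 (R 4.3.3) with a mean trend. Fold changes are on this scale, which understates those of low genes. A call needed a BH-adjusted p under 0.05 and a log2 fold change past 1. *WRKY53* was fitted without the filter. Tables used Python 3.11.15 and pandas 2.3.3. The fit was tested on simulated data.

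The 10 genes and all lists were chosen with earlier results of these data known, and the listed genes named are those called or, with none called, the 3 with the largest absolute change among those tested, plus the 5 genes nearest in profile. Positions and sequence are RefSeq, TAIR10.1. Alternatives were pseudocounts of 0.1 and 1, no filter, each library left out, the letter as a block, median-ratio scaling, quality weights, no fold limit and, chosen after seeing the data, leaving out Col-0 A and *ice1-2* B together.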

Additional observations from a re-analysis of the deposited data

How the results depend on the processing

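The median of the 10 genes stayed between 0.69 and 1.16 in 12 of 12 alternatives. *ZAT10* kept its direction but lost its call with a pseudocount of 1 (log2 fold change 0.995, BH-adjusted p = 0.0454 with limma), no filter (1.08, 0.0911), the replicate block (1.08, 0.0798), median-ratio scaling (0.92, 0.0955), without Col-0 A and *ice1-2* B (0.93, 0.132), and with each library left out (0.96 to 1.21, 0.0637 to 0.134). With library quality weights *WRKY33* (1.16, BH-adjusted p = 0.0434 with limma), *WRKY40* (1.87, 0.0444) and *ERF6* (1.43, 0.0352) were called too, and with single libraries left out *WRKY40* ranged from 1.15 to 2.24 and of these passed only without *ice1-2* C. *ERF5* turned to −0.11 with median-ratio scaling and ranged from −0.13 to 0.23 with single libraries left out. The number of the 10 genes called was 1, and it was 0 with a pseudocount of 1, no filter, the replicate block, median-ratio scaling and without Col-0 A and *ice1-2* B, 4 with quality weights, and 0 to 1 with single libraries left out. Over all genes 335 were called, against 28 with no filter, 35 with the replicate block, 163 with median-ratio scaling (126 higher, 37 lower, against 291 and 44), 803 with quality weights, 728 without Col-0 A and *ice1-2* B, and 15 (without *ice1-2* C) to 628 (without Col-0 A) with single libraries left out. The causes were not tested. Deviations of same-lettered libraries correlated across genes at −0.21, 0.05 and 0.12, inside the range of differently lettered ones (−0.29 to 0.22). So few values cannot settle whether the letters pair the libraries. Precision was limited by 3 libraries a genotype, of which *ice1-2* A had the lowest estimated depth (5.85 M fragments).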
